A study of Mus musculus with 9 samples.

Results

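The genes described here make cholesterol, sense it and move it: 32 genes named for this purpose, of 19938 genes measured on the arrays. They cover the mevalonate steps, the steps between squalene and cholesterol, 1 enzyme of the non-sterol branch, the SREBP2 regulators, the LXR receptors with their targets, and carriers of cholesterol within the cell. Members were chosen by gene symbol, using probe sets that carry a single symbol, and 29 of the 32 were measured in this way. Acat2, Nr1h2 and Soat1 had no such probe set, so their RNA is not analysed here and they enter only the promoter search. No measured value entered the choice of symbols by the rule itself, although earlier results of these data were known when the genes were picked.

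RNA was measured on 9 gene expression arrays, 3 for each of 3 groups, 1 array per sample. The osteosarcoma group holds 3 separate mouse tumour cell lines (lines 1, 2 and 3), described as fibroblastic and lacking p53 and Rb, from adult C57BL/6 mice of the genotype Osx-Cre p53fl/fl Rbfl/fl, in which the Osterix promoter directs Cre recombinase to the osteoblast lineage. Lines 1 and 3 came from females and line 2 from a male, and the cultures were subconfluent and below passage 8. The osteoblast group holds 3 independent cultures of Kusa4b10, a bone marrow stromal cell line of the mouse, differentiated over 21 days with ascorbate in the medium. The pre-osteoblast group holds 3 independent undifferentiated cultures of that line. All 6 Kusa4b10 cultures are thus 1 cell line, no other treatment is given for them, so that between osteoblasts and pre-osteoblasts the differentiation, the culture time, the medium and the state of growth cannot be told apart. In the comparisons with osteosarcoma, the tumour state, the lack of p53 and Rb and the line of origin cannot be told apart. Against osteoblasts, the differentiation, the culture time, the medium and the state of growth cannot be told apart from these either. Each comparison shares a group of samples with each of the others, so values of the 3 comparisons are set side by side and were not correlated.

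Cholesterol is built from acetyl-CoA by way of mevalonate, isoprenoid diphosphates, squalene and lanosterol. When sterols in the endoplasmic reticulum run low, SCAP escorts SREBP2 to the Golgi, where it is cleaved into a transcription factor that switches on nearly every enzyme of the route; when sterols are plentiful, INSIG proteins hold SCAP and SREBP2 back. Oxysterols and some synthesis intermediates activate the LXR receptors, which switch on cholesterol exporters such as ABCA1, so that synthesis and export usually move in opposite directions. In bone cells the mevalonate branch is best known through farnesyl diphosphate synthase, the enzyme that nitrogen-containing bisphosphonate drugs inhibit.

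The promoters of 5 members are shown first, as the reference sequence around the starts of genes the results turn on: Idi1, Tm7sf2 and Cyp51, which are synthesis enzymes with large falls in osteoblasts, Abca1, the exporter with the largest rise, and Hmgcs1, chosen after the search because it alone held the sterol element searched for. Each window runs from 250 bases before to 50 bases after the gene's start, read 5′ to 3′ on the gene's strand, from RefSeq on GRCm38.p6, a later build than the mm9 that the submitters' processing notes name. Capitals mark matches to the NF-Y motif CCAAT, written ATTGG where it lies on the other strand, and in Hmgcs1 also the match to the sterol regulatory element.
Idi1 (chr13:8885356-8885655, plus strand): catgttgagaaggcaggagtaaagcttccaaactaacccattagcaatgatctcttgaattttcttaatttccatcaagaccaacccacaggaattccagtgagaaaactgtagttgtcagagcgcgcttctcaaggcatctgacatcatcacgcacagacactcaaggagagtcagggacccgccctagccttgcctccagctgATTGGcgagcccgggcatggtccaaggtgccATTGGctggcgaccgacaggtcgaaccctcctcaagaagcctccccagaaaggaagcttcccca
Tm7sf2 (chr19:6067801-6068100, minus strand): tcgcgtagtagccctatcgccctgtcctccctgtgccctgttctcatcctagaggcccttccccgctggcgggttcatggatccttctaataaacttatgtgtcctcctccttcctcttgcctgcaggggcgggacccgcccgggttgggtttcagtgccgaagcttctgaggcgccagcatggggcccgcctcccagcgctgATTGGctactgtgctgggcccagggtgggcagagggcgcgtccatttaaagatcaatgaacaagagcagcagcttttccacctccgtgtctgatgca
Cyp51 (chr5:4104648-4104947, minus strand): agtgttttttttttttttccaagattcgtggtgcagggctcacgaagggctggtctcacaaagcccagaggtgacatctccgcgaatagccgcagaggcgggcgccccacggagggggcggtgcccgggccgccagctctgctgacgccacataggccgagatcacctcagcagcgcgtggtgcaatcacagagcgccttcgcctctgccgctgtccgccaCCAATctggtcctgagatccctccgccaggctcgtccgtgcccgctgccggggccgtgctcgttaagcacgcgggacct
Hmgcs1 (chr13:119690101-119690400, plus strand): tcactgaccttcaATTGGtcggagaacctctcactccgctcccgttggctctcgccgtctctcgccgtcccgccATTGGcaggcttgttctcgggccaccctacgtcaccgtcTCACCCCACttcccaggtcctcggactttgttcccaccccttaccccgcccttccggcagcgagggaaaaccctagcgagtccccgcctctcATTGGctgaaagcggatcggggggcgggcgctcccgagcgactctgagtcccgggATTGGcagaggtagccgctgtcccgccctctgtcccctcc
Abca1 (chr4:53159846-53160145, minus strand): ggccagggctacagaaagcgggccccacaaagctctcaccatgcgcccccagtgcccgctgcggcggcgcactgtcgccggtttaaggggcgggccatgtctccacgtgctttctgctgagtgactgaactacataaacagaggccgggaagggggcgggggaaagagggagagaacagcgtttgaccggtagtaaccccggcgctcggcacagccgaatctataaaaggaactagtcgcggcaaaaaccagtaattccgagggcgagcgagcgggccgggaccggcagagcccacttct

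RefSeq windows were held for 26 of the 32 named members, Acat2, Nr1h2 and Soat1 among them, and 4 short motifs were searched on both strands. CCAAT is the box bound by NF-Y, a factor that works with SREBP2 at many sterol promoters. It was found in 15 of the 16 named synthesis members with a window, against 41.1% of all 27025 genes with a window. The exception was Acat2, which was not measured on the arrays. GGGCGG, bound by Sp1, was found in 15 of those 16, Pmvk being the exception, against 38.2% of all genes. The sterol regulatory element was searched only in the exact form TCACNCCAC, so variants with a changed letter were not counted. That form was found in Hmgcs1 only, at positions -137 to -129 from the start, and in 1.44% of all genes. The LXR element, taken as 2 exact copies of AGGTCA spaced by 4 bases, was found in 0 of the 26 members and in 0.0148% of all genes. So strict a form is rare in any set of genes, and copies with a changed letter were not counted. The 0 of 26 therefore cannot tell whether a member, Abca1 included, holds a looser LXR element. In the members' windows 0 matches of different motifs overlapped. A match, or its lack, describes these letters in these windows and nothing about binding.

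Levels are log2 values as deposited by the authors, and levels of different genes are not comparable because each probe set has its own response. Differences are given with their standard error from a limma model over all 9 arrays. A gene was called at an adjusted p below 0.05 over the 19938 genes. Of all genes, 10.3% were called higher and 15.8% lower in osteoblasts than in pre-osteoblasts. In osteosarcoma the shares were 9.96% and 13.5% against pre-osteoblasts, and 14.7% and 12.7% against osteoblasts. Counts for every list below are to be read beside these shares. In bulk RNA, fewer cells of a type and less RNA per cell cannot be told apart. Osteoblast culture 2 stood apart from its group on the first principal component, which held 46.2% of the variance (39.8, against 51.4 and 51.5 for cultures 1 and 3). Pre-osteoblast cultures 1, 2 and 3 spread about as widely there, at -7.65, -19.3 and -14.2. The counts of calls and the members that osteoblast culture 2 pulled most are also given without it. Marker genes were read beside the sterol genes. Osteoblast markers were called higher in osteoblasts than in pre-osteoblasts for 8 of 10 genes, with list means of 11.01 to 11.75 in osteoblasts and 8.59 to 9.0 in pre-osteoblasts. In osteosarcoma lines the same list lay between 8.79 and 9.30, and 1 of the 10 genes was called higher than in pre-osteoblasts: Alpl, the alkaline phosphatase of mineralising cells (2.37 ± 0.72, adjusted p = 0.0468; 9.69, 10.22 and 12.37 in the lines, against 9.28, 8.09 and 7.82 in pre-osteoblasts). At an unadjusted p below 0.05 it was 2 of 10. The matrix protein genes Ibsp (6.34 to 8.13) and Dmp1 (6.28 to 6.71) were not called against pre-osteoblasts, Dmp1 lying below the median gene level of 7.97.

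Osteoblast cultures had much lower RNA of the cholesterol route than pre-osteoblasts and higher RNA of the exporter Abca1. Of the 29 measured members, 19 were called lower in osteoblasts (15.8% of all genes were) and 4 higher (10.3% of all genes), and 6 passed neither way. The median difference of the members was -1.67 on the log2 scale, against 0.00 for all genes. Of the 17 synthesis enzymes, 16 fell, by 3.04-fold to 13.6-fold, with adjusted p between 1.51e-05 and 0.00134. In each of those 16 the 3 osteoblast arrays lay below the 3 pre-osteoblast arrays, where 25.1% of all genes lay apart in that direction. Leaving out osteoblast culture 2 left these counts at 4 higher and 19 lower.

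**Figure D1:**
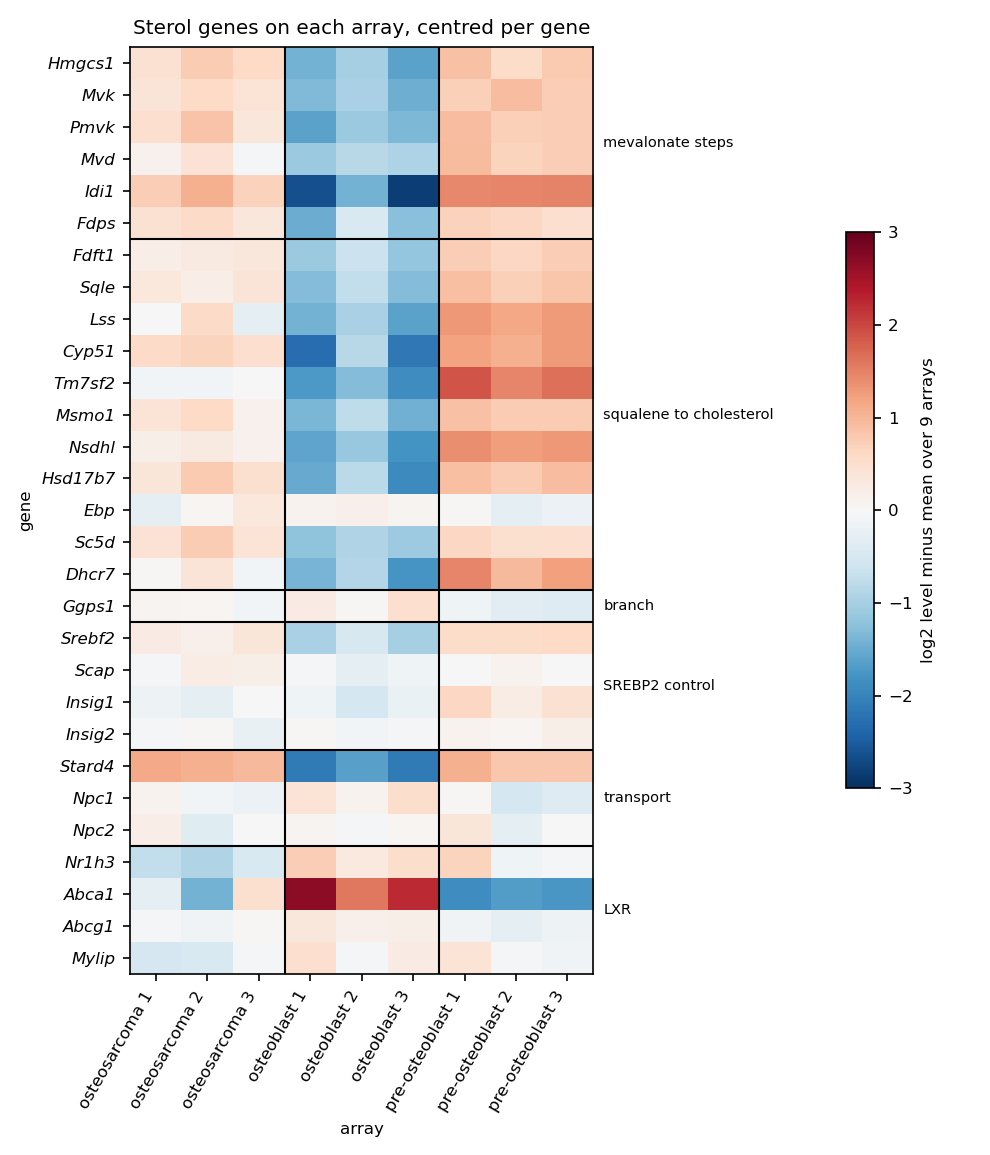
Level of each measured sterol gene (rows, ordered by role) on each of the 9 arrays (columns), as the log2 level minus that gene's mean over the 9 arrays; red is above the mean, blue below. The synthesis enzymes other than Ebp, and Stard4, are blue in the 3 osteoblast columns, where Abca1 is red, and Idi1 and Abca1 have the deepest colours.

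The 6 mevalonate enzymes measured all fell in osteoblasts. Idi1, which isomerises isopentenyl diphosphate into its reactive partner, was at 11.45, 11.78 and 11.40 in osteosarcoma lines 1, 2 and 3, at 8.08, 9.29 and 7.90 in osteoblast cultures 1, 2 and 3 and at 12.15, 12.19 and 12.22 in pre-osteoblast cultures 1, 2 and 3. The groups did not overlap, osteoblast culture 2 lay well above the other osteoblast cultures, and the fall relative to pre-osteoblasts was 3.76 ± 0.32 on the log2 scale, or 13.6-fold (adjusted p = 1.35e-04). It was the largest fall among the members. A further single-symbol probe set of Idi1 gave -3.84.

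Hmgcs1, the synthase that makes HMG-CoA, had levels of 12.18, 12.49 and 12.34 in the osteosarcoma lines, 10.31, 10.73 and 10.13 in osteoblasts and 12.62, 12.27 and 12.50 in pre-osteoblasts. The osteoblast arrays lay below all others, while osteosarcoma and pre-osteoblast arrays overlapped. Relative to pre-osteoblasts, Hmgcs1 fell by 2.08 ± 0.16 in osteoblasts (adjusted p = 9.41e-05) and differed by -0.13 ± 0.16 in osteosarcoma (adjusted p = 0.646). Its promoter, printed above, is the one in which the exact form of the sterol element was found.

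Mevalonate is then phosphorylated by Mvk and Pmvk and decarboxylated by Mvd. Mvk was at 10.65, 10.84 and 10.65 in the osteosarcoma lines, 8.93, 9.27 and 8.79 in osteoblasts and 10.95, 11.17 and 10.99 in pre-osteoblasts. Pmvk was at 9.17, 9.51 and 8.99 in the osteosarcoma lines, 7.05, 7.54 and 7.31 in osteoblasts and 9.59, 9.38 and 9.39 in pre-osteoblasts. Both were lowest in the osteoblasts with no overlap with either other group. Relative to pre-osteoblasts, Mvk fell by 2.04 ± 0.12 and Pmvk fell by 2.15 ± 0.16. Mvd stood at 10.26, 10.56 and 10.09 in the osteosarcoma lines, 9.01, 9.29 and 9.19 in osteoblasts and 11.09, 10.80 and 10.86 in pre-osteoblasts. Here the 3 groups separated fully, with osteosarcoma between the others: against pre-osteoblasts, Mvd differed by -0.61 ± 0.13 in osteosarcoma (adjusted p = 0.0125) and by -1.75 ± 0.13 in osteoblasts. Fdps, which builds farnesyl diphosphate, had 12.31, 12.43 and 12.19 in the osteosarcoma lines, 10.35, 11.39 and 10.59 in osteoblasts and 12.53, 12.47 and 12.34 in pre-osteoblasts. Osteoblast culture 2 lay well above cultures 1 and 3, yet the osteoblast arrays stayed below every other array, and the fall was 1.67 ± 0.23 (adjusted p = 0.00134).

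From farnesyl diphosphate the route commits to sterols. Fdft1, squalene synthase, was at 12.55, 12.62 and 12.68 in the osteosarcoma lines, 11.23, 11.72 and 11.20 in osteoblasts and 13.10, 12.98 and 13.09 in pre-osteoblasts. All 3 groups were apart, osteoblasts lowest, and the difference between osteoblasts and pre-osteoblasts was -1.67 ± 0.13 (adjusted p = 9.29e-05). Sqle, the epoxidase that is a slow step of the route, was at 11.90, 11.79 and 11.98 in the osteosarcoma lines, 10.29, 10.85 and 10.29 in osteoblasts and 12.50, 12.30 and 12.41 in pre-osteoblasts. It fell by 1.93 ± 0.15 in osteoblasts, whose arrays lay below the rest. Lss, which closes the rings to give lanosterol, was at 11.01, 11.60 and 10.74 in the osteosarcoma lines, 9.61, 10.05 and 9.43 in osteoblasts and 12.33, 12.19 and 12.31 in pre-osteoblasts. Lss had the widest spread of any synthesis member among the tumour lines, 0.86 with line 2 highest, and the 3 groups still did not overlap (-1.16 ± 0.23 in osteosarcoma and -2.58 ± 0.23 in osteoblasts, relative to pre-osteoblasts).

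Lanosterol is trimmed and rearranged by the enzymes that follow. Tm7sf2, a sterol reductase, was at 9.85, 9.85 and 9.94 in the osteosarcoma lines, 8.20, 8.63 and 8.07 in osteoblasts and 11.82, 11.38 and 11.58 in pre-osteoblasts. It was highest in every pre-osteoblast culture and lowest in every osteoblast culture: -1.71 ± 0.16 in osteosarcoma (adjusted p = 2.40e-04) and -3.29 ± 0.16 in osteoblasts (adjusted p = 1.51e-05), both relative to pre-osteoblasts. The tumour value was the largest of any synthesis member in that comparison. Cyp51, the lanosterol demethylase, had 11.61, 11.70 and 11.54 in the osteosarcoma lines, 8.75, 10.20 and 8.90 in osteoblasts and 12.25, 12.11 and 12.31 in pre-osteoblasts. Osteoblast culture 2 was well above cultures 1 and 3, the range of 1.45 being the widest of any member in that group, and the fall was 2.94 ± 0.33 (adjusted p = 4.83e-04).

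Nsdhl, which helps remove methyl groups from the sterol, was at 11.88, 11.96 and 11.83 in the osteosarcoma lines, 10.11, 10.55 and 9.89 in osteoblasts and 13.08, 12.94 and 12.99 in pre-osteoblasts. Msmo1, the oxidase of the same demethylation, was at 12.31, 12.51 and 12.05 in the osteosarcoma lines, 10.53, 11.15 and 10.48 in osteoblasts and 12.80, 12.66 and 12.68 in pre-osteoblasts. Hsd17b7, its reductase, was at 11.29, 11.70 and 11.39 in the osteosarcoma lines, 9.40, 10.12 and 9.02 in osteoblasts and 11.83, 11.67 and 11.85 in pre-osteoblasts. In these 3 genes the osteoblast arrays were the lowest, and the differences from pre-osteoblasts were -2.82 ± 0.15 for Nsdhl, -1.99 ± 0.19 for Msmo1 and -2.27 ± 0.25 for Hsd17b7. Dhcr7, the last reductase of one arm of the route, stood at 10.14, 10.50 and 10.04 in the osteosarcoma lines, 8.72, 9.23 and 8.35 in osteoblasts and 11.58, 11.08 and 11.35 in pre-osteoblasts. The 3 groups were apart once more, with differences from pre-osteoblasts of -1.11 ± 0.23 in osteosarcoma and -2.57 ± 0.23 in osteoblasts. Sc5d, the desaturase before it, was at 11.57, 11.90 and 11.55 in the osteosarcoma lines, 9.93, 10.23 and 10.03 in osteoblasts and 11.76, 11.61 and 11.63 in pre-osteoblasts. Sc5d fell by 1.60 ± 0.11 in osteoblasts, while osteosarcoma and pre-osteoblast arrays overlapped, with a difference of 0.00 ± 0.11 (adjusted p = 0.989).

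Ebp, a sterol isomerase of the same route, did not follow the other enzymes. Its levels were 10.84, 11.16 and 11.42 in the osteosarcoma lines, 11.21, 11.26 and 11.19 in osteoblasts and 11.15, 10.84 and 10.95 in pre-osteoblasts. All osteoblast arrays lay above all pre-osteoblast arrays, but the difference of 0.24 ± 0.14 did not pass (adjusted p = 0.276). Ebp also passed in neither osteosarcoma comparison.

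**Figure D2:**
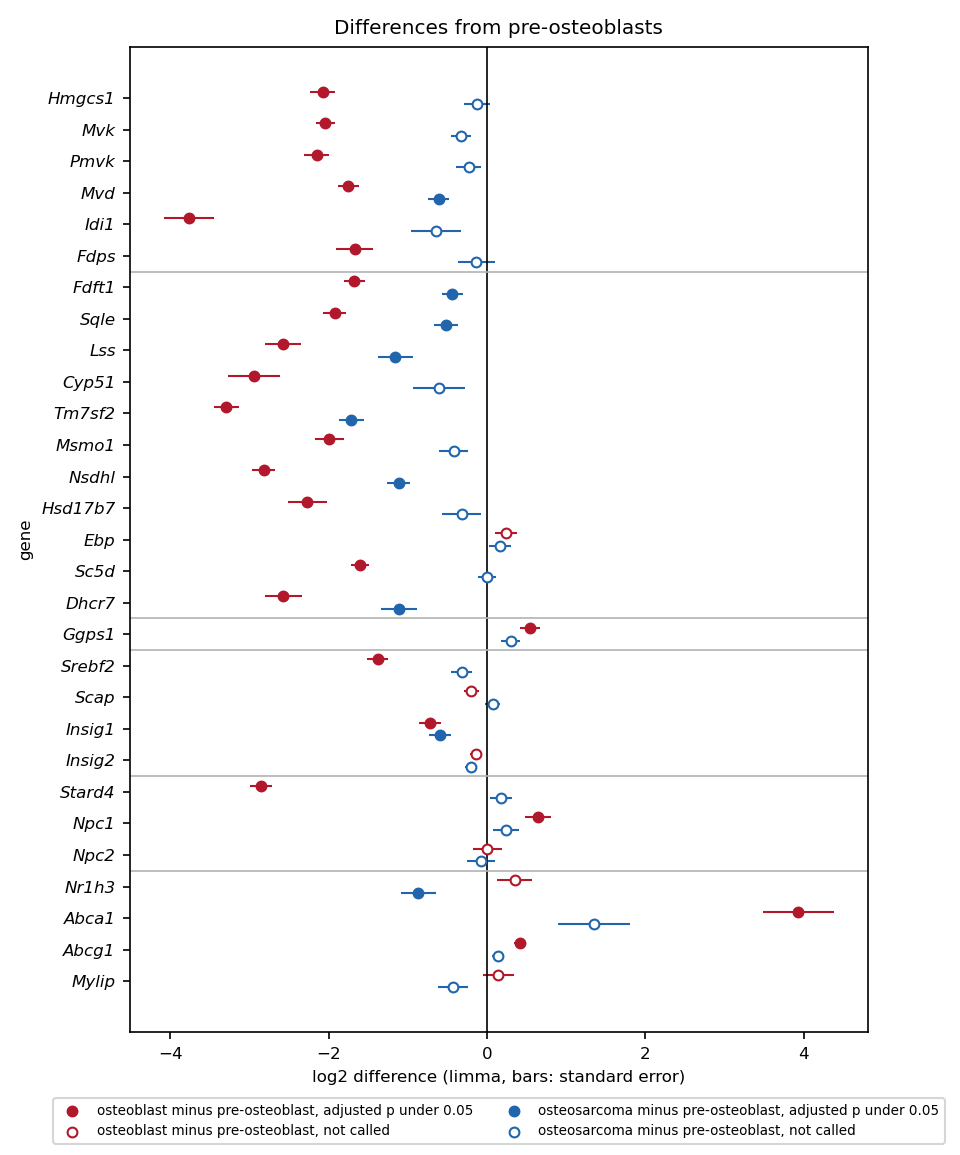
Log2 difference from pre-osteoblasts (horizontal axis) for each measured sterol gene (rows) in osteoblasts (red) and in osteosarcoma lines (blue), with bars for 1 standard error; filled points passed an adjusted p of 0.05. The synthesis enzymes other than Ebp lie far left in red and nearer to 0 in blue, and Abca1 lies far right in red.

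Ggps1, which draws farnesyl diphosphate into geranylgeranyl diphosphate for protein prenylation, went the other way from the sterol enzymes. It was at 10.29, 10.27 and 10.13 in the osteosarcoma lines, 10.47, 10.24 and 10.72 in osteoblasts and 10.09, 9.89 and 9.82 in pre-osteoblasts. Osteoblast arrays lay above all pre-osteoblast arrays, and Ggps1 rose by 0.55 ± 0.12 (adjusted p = 0.0127), a call lost without pre-osteoblast culture 3 (adjusted p = 0.0509). Without that culture only 2 of the 29 members, Abca1 and Abcg1, were called higher. Among 9 other genes that use isoprenoids, limma called 0 higher (0 also at an unadjusted p below 0.05) and 3 lower in osteoblasts: Fnta (-0.56), Fntb (-0.48) and Pggt1b (-0.28), which encode subunits of the prenyl transferases.

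Among the regulators, Srebf2, the gene of SREBP2, changed with its targets. Srebf2 was at 11.50, 11.40 and 11.61 in the osteosarcoma lines, 10.28, 10.77 and 10.26 in osteoblasts and 11.82, 11.79 and 11.85 in pre-osteoblasts. Every osteoblast array lay below every array of the other groups, and Srebf2 fell by 1.38 ± 0.13 in osteoblasts (adjusted p = 2.40e-04). Scap, the escort of SREBP2, was at 10.21, 10.50 and 10.45 in the osteosarcoma lines, 10.23, 9.97 and 10.14 in osteoblasts and 10.29, 10.38 and 10.29 in pre-osteoblasts. Insig2, a retention protein, was at 11.41, 11.50 and 11.25 in the osteosarcoma lines, 11.52, 11.40 and 11.44 in osteoblasts and 11.58, 11.55 and 11.65 in pre-osteoblasts. Neither Scap (-0.20 ± 0.09, adjusted p = 0.168) nor Insig2 (-0.14 ± 0.07, adjusted p = 0.227) was called in osteoblasts. In both genes every osteoblast array still lay below every pre-osteoblast array, where 25.1% of all genes lay apart in that direction. Insig1, a retention protein that is itself an SREBP2 target, was at 11.66, 11.52 and 11.82 in the osteosarcoma lines, 11.69, 11.31 and 11.63 in osteoblasts and 12.46, 12.04 and 12.29 in pre-osteoblasts. Its osteosarcoma and osteoblast arrays overlapped and lay below the pre-osteoblasts, with differences of -0.59 ± 0.14 in osteosarcoma (adjusted p = 0.0166) and -0.72 ± 0.14 in osteoblasts (adjusted p = 0.00601). The osteosarcoma call was lost without pre-osteoblast culture 1 (adjusted p = 0.0584) or culture 3 (adjusted p = 0.0567).

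Of 6 other genes that process SREBPs or turn over HMG-CoA reductase, 1 rose and 1 fell in osteoblasts. Of all genes, 10.3% were called higher there and 15.8% lower. The riser was Syvn1, a ubiquitin ligase of the endoplasmic reticulum, with 0.80 ± 0.12. Srebf1, the gene of SREBP1, fell, with -0.29 ± 0.07. Of 12 fatty acid synthesis genes that SREBP1 drives, 7 fell and 2 rose in osteoblasts. Acss2, which makes acetyl-CoA from acetate, fell by 2.63 ± 0.15, and Acly, which makes it from citrate, fell by 1.67 ± 0.09. Elovl6, which lengthens fatty acids, fell by 1.61 ± 0.11, and the desaturase gene Fads2 fell by 1.26 ± 0.08. The 2 rises, named after their values were seen, were those of Gpam and Scd1. Gpam, which starts triglyceride assembly, rose by 1.01 ± 0.17, and Scd1, another desaturase, rose by 0.25 ± 0.07.

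Stard4, a soluble cholesterol carrier and SREBP2 target, had the clearest split. Its levels were 10.78, 10.71 and 10.60 in the osteosarcoma lines, 7.51, 8.00 and 7.52 in osteoblasts and 10.69, 10.45 and 10.43 in pre-osteoblasts. Osteosarcoma and pre-osteoblast arrays overlapped within a narrow band, and all osteoblast arrays lay far below it. The difference between osteoblasts and pre-osteoblasts was -2.85 ± 0.14 (adjusted p = 1.54e-05), and between osteosarcoma and osteoblasts 3.02 ± 0.14 (adjusted p = 1.19e-05). The lysosomal exporters behaved otherwise. Npc1 was at 11.26, 11.06 and 10.97 in the osteosarcoma lines, 11.56, 11.25 and 11.68 in osteoblasts and 11.19, 10.62 and 10.77 in pre-osteoblasts. Osteoblasts were above pre-osteoblasts on every array and Npc1 rose by 0.64 ± 0.17 (adjusted p = 0.0221), a call that did not pass without osteoblast culture 1 or 3 or without pre-osteoblast culture 2 or 3 (adjusted p 0.0751 to 0.0830). Npc2, its partner in the lysosome, was at 11.21, 10.65 and 11.02 in the osteosarcoma lines, 11.09, 10.96 and 11.07 in osteoblasts and 11.37, 10.74 and 10.99 in pre-osteoblasts. The groups overlapped and the difference between osteoblasts and pre-osteoblasts was 0.00 ± 0.18.

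**Figure D3:**
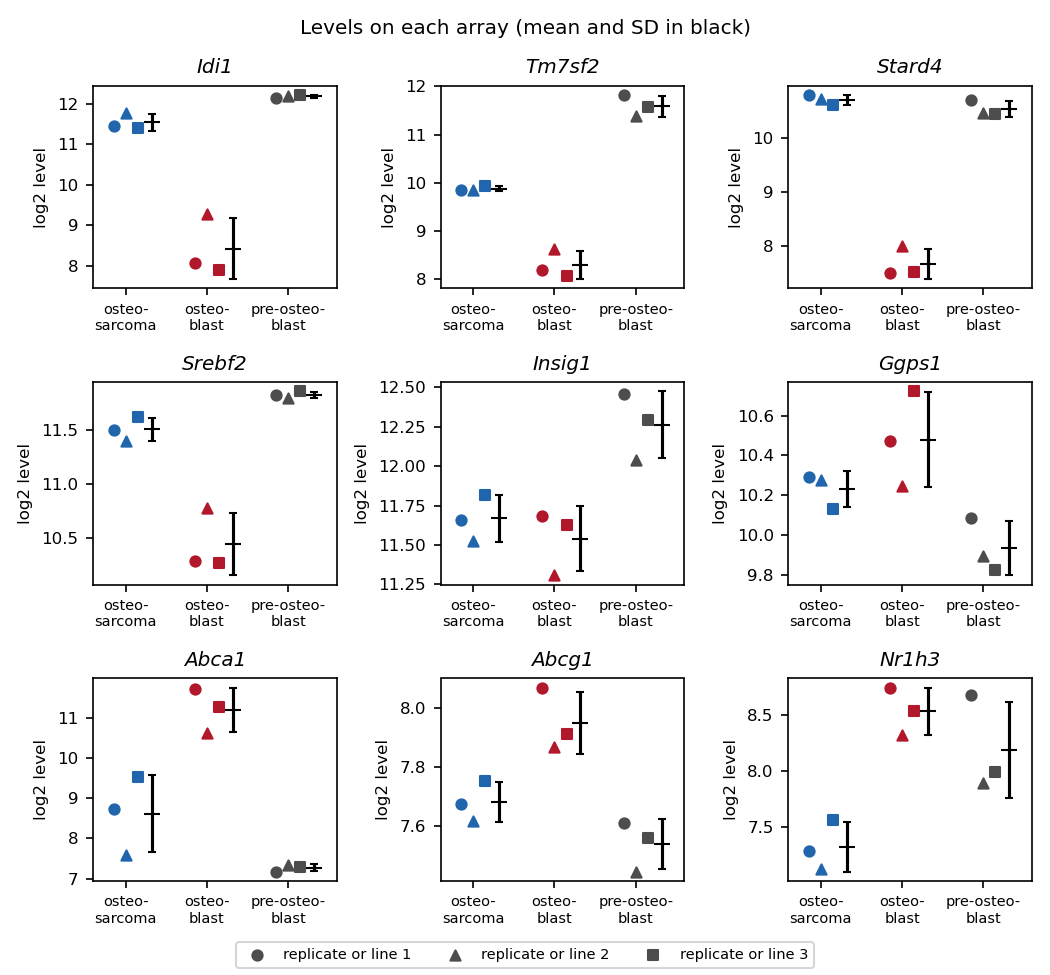
Log2 level (vertical axes, scaled per gene) of 9 sterol genes on each array, grouped as osteosarcoma, osteoblast and pre-osteoblast; symbols are samples 1, 2 and 3 and black bars are the mean and SD. Idi1, Tm7sf2 and Stard4 are lowest in osteoblasts, Abca1 is highest there at 10.62 to 11.72, and the lines spread widely for Abca1.

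On the export side, Abca1, which loads cholesterol onto lipid-poor apolipoprotein, had the largest rise of any member. It was at 8.74, 7.60 and 9.52 in the osteosarcoma lines, 11.72, 10.62 and 11.27 in osteoblasts and 7.18, 7.35 and 7.28 in pre-osteoblasts. The 3 groups were apart, pre-osteoblasts lowest, close to each other and below the median gene level of 7.97. Abca1 rose by 3.93 ± 0.45 in osteoblasts, or 15.2-fold (adjusted p = 5.48e-04). Abcg1, which exports cholesterol to mature lipoprotein, was at 7.68, 7.62 and 7.75 in the osteosarcoma lines, 8.07, 7.87 and 7.91 in osteoblasts and 7.61, 7.45 and 7.56 in pre-osteoblasts. It rose by 0.41 ± 0.07 in osteoblasts (adjusted p = 0.00447), and its osteoblast arrays lay above all others. Except in osteoblast culture 1, its levels lay below the median gene level of 7.97.

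The other 2 members of the set named LXR-driven did not pass in osteoblasts. That name is only a label for the set, which includes the receptor gene Nr1h3, and regulation by LXR was not tested. Mylip, whose protein marks lipoprotein receptors for breakdown, was at 9.82, 9.87 and 10.28 in the osteosarcoma lines, 10.83, 10.28 and 10.58 in osteoblasts and 10.74, 10.30 and 10.22 in pre-osteoblasts. Nr1h3, the gene of LXR alpha, was at 7.28, 7.12 and 7.56 in the osteosarcoma lines, 8.74, 8.32 and 8.54 in osteoblasts and 8.68, 7.90 and 7.99 in pre-osteoblasts. Osteoblast and pre-osteoblast arrays overlapped in both genes, with differences of 0.14 ± 0.19 for Mylip and 0.35 ± 0.22 for Nr1h3 (adjusted p = 0.669 and 0.311). Pre-osteoblast culture 1 was the highest of its group in both. Without it, Nr1h3 passed as higher in osteoblasts (adjusted p = 0.0368).

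Set against each other, the 19 synthesis members (the 17 enzymes, Insig1 and Stard4) had 18 falls in osteoblasts with a median of -2.08, while the 4 LXR-driven members (Abca1, Abcg1, Mylip and Nr1h3) had 2 rises with a median of 0.38. The limma counts in the opposite directions were 0 for both sets, also at an unadjusted p below 0.05. Array means of the synthesis members were 9.47 to 10.04 in osteoblasts and 11.71 to 11.91 in pre-osteoblasts. Those of the LXR-driven members were 9.27 to 9.84 in osteoblasts and 8.25 to 8.55 in pre-osteoblasts. The LXR-driven mean follows Abca1 far more than the others: the differences were 3.93 for Abca1, 0.41 for Abcg1, 0.35 for Nr1h3 and 0.14 for Mylip. Of 11 further LXR targets and oxysterol enzymes, 5 rose and 2 fell. Apoe, the apolipoprotein that accepts exported cholesterol, was at 9.66, 8.91 and 9.66 in the osteosarcoma lines, 12.63, 12.05 and 12.21 in osteoblasts and 9.60, 8.99 and 8.93 in pre-osteoblasts, with a rise of 3.12 ± 0.26 in osteoblasts (adjusted p = 1.31e-04). Ch25h, which makes an oxysterol, rose by 1.64 ± 0.22. Lpcat3, an LXR target that remodels phospholipids, fell by 1.22 ± 0.05. This further list mixes LXR targets with oxysterol enzymes, and of all genes 10.3% were called higher and 15.8% lower in osteoblasts.

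Marker genes of other cell states moved alongside. All 11 markers of dividing cells fell in osteoblasts, whose list means were 8.50 to 9.69, against 10.72 to 11.60 in pre-osteoblasts. Of 10 adipocyte markers, 7 rose, with list means of 10.53 to 11.21 in osteoblasts and 8.12 to 8.61 in pre-osteoblasts. Adipoq was at 12.81, 11.95 and 12.28 in osteoblasts and 9.05, 6.74 and 7.30 in pre-osteoblasts. Their part in the sterol result was not tested. Of 10 macrophage markers 1, Cd14, fell, with list means of 6.54 to 6.61 in osteoblasts and 6.61 to 6.70 in pre-osteoblasts, below the median gene level. Adgre1, a defining macrophage gene, lay between 5.58 and 5.67 on all 9 arrays. Of the 4 hepatocyte and 5 endothelial markers, 1 (Cyp7a1) was called, lower in osteosarcoma than in each other group.

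Osteosarcoma lines had more RNA of the synthesis genes than osteoblasts and less of the LXR side. Compared with osteoblasts, 18 of the 29 members were called higher (14.7% of all genes were) and 3 lower (12.7% of all genes), with a median difference of 1.41. Of the 17 enzymes, 16 were higher, by 2.20-fold to 8.69-fold. The largest was Idi1 at 3.12 ± 0.32 (adjusted p = 3.18e-04), followed by Cyp51 at 2.34 ± 0.33. Without osteoblast culture 2 the difference of Idi1 was 3.55, and 18 members were called higher and 4 lower. Stard4 was higher by 3.02 ± 0.14 and Srebf2 by 1.06 ± 0.13. In each of the 16 enzymes every tumour line lay above every osteoblast array, where 19.6% of all genes did.

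Insig1 stood out from the other synthesis members here, with a difference of 0.13 ± 0.14 between osteosarcoma and osteoblasts that did not pass (adjusted p = 0.568). Ebp did not pass either (-0.08 ± 0.14, adjusted p = 0.742). The 3 members called lower in osteosarcoma than in osteoblasts were Abca1 (-2.58 ± 0.45), Nr1h3 (-1.21 ± 0.22) and Abcg1 (-0.27 ± 0.07), all of the LXR side. Mylip, the ligase that marks the LDL receptor for breakdown and an LXR target, was lower without passing (-0.57 ± 0.19, adjusted p = 0.0616), and it passed in 7 alternative fits, that without osteoblast culture 2 among them, with adjusted p of 0.0317 to 0.0497. The Abcg1 call was lost in 6 alternative fits, with adjusted p of 0.0525 to 0.0970. The dividing-cell markers were again on the side of the synthesis genes, with 11 of 11 called higher in osteosarcoma (list means 11.26 to 11.74, against 8.50 to 9.69 in osteoblasts), and 9 of 10 adipocyte markers were called lower (7.5 to 7.94 in osteosarcoma, against 10.53 to 11.21 in osteoblasts). Their part in these differences was not tested. Of the 11 further LXR targets and oxysterol enzymes, 2 were higher and 7 lower in osteosarcoma than in osteoblasts, Apoe among the lower (-2.89 ± 0.26). Of the 12 fatty acid synthesis genes, 8 were higher and 3 lower, led by Acss2 (2.39 ± 0.15).

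Against pre-osteoblasts the tumour lines had less RNA of 8 synthesis members and of Nr1h3. Of the 29 members, 0 were called higher (9.96% of all genes were) and 9 lower (13.5% of all genes), with a median of -0.32. At an unadjusted p below 0.05 from limma, 2 members (Abca1 and Ggps1) were higher and 12 lower. The 9 called were Mvd, Fdft1, Sqle, Lss, Tm7sf2, Nsdhl, Dhcr7, Insig1 and Nr1h3. Enzymes of the squalene-to-cholesterol steps made up 6 of these, of 11 measured, with a median of -0.52, and the mevalonate steps gave 1 of 6 with a median of -0.28. The 3 enzymes that fell most were Tm7sf2 (-1.71 ± 0.16), Lss (-1.16 ± 0.23, adjusted p = 0.00734) and Nsdhl (-1.12 ± 0.15, adjusted p = 0.00122). In 11 of the 17 enzymes the 3 lines lay below all pre-osteoblast arrays, where 20.2% of all genes did. Of the 12 fatty acid synthesis genes, 1 was higher and 4 were lower in osteosarcoma than in pre-osteoblasts, and of the 11 further LXR targets and oxysterol enzymes 1 was higher and 4 were lower. Whether the late steps differ from the early steps was not tested.

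Osteoblast culture 2 is in neither of these groups and enters only through the shared estimate of spread, but without it 14 members were called lower. Those added were Idi1 (adjusted p = 0.00606), Cyp51 (0.00221), Srebf2 (0.0129), Mvk (0.0343) and Msmo1 (0.0379). Idi1, Cyp51 and Srebf2 passed as well when only the compared groups were fitted. Fdft1 (adjusted p = 0.0436) and Sqle (adjusted p = 0.0382) lay close to the threshold and were lost in 9 and 8 alternative fits.

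Nr1h3 fell by 0.87 ± 0.22 in osteosarcoma relative to pre-osteoblasts (adjusted p = 0.0217), but the call was lost without line 1 or line 2 (adjusted p = 0.0598 and 0.0576) and when only the compared groups were fitted (adjusted p = 0.0557). Abca1 lay above every pre-osteoblast array in all 3 lines, with 7.60 in line 2 closest to the pre-osteoblasts, and its difference of 1.35 ± 0.45 did not pass (adjusted p = 0.0659). Without line 2 it did (adjusted p = 0.00592), the count of members higher then being 1. Dividing-cell markers gave 0 limma calls in either direction (at an unadjusted p below 0.05, Cdc20 alone was higher), with list means of 11.26 to 11.74 in osteosarcoma and 10.72 to 11.60 in pre-osteoblasts. The adipocyte list lay lower in every line than in every pre-osteoblast culture, with means of 7.5 to 7.94 in osteosarcoma and 8.12 to 8.61 in pre-osteoblasts. Of its 10 genes 2 were called lower, Pparg (-1.54 ± 0.22, adjusted p = 0.00195) and Lipe (-1.38 ± 0.24, adjusted p = 0.00438), and 4 were lower at an unadjusted p below 0.05. Its part in the sterol differences was not tested.

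**Figure D4:**
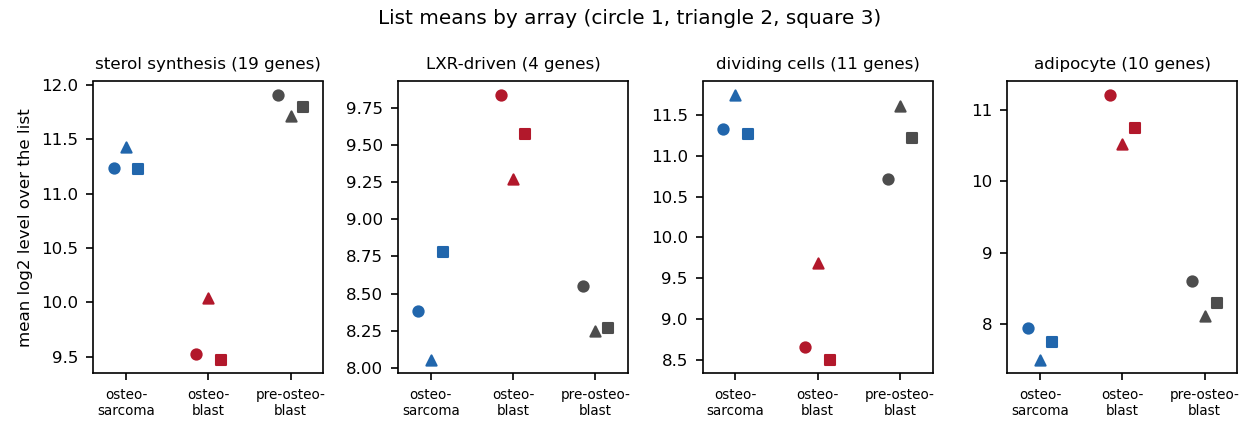
Mean log2 level on each array (vertical axes, scaled per panel) over the synthesis members, the LXR-driven members, and the markers of dividing cells and adipocytes, with arrays grouped as osteosarcoma, osteoblast and pre-osteoblast. The synthesis and dividing-cell means are lowest in osteoblasts, where the LXR-driven and adipocyte means are highest. Sample 2 (triangle) is the highest osteoblast point in the synthesis and dividing-cell panels. Of the 4 LXR-driven members, Abca1 had by far the largest difference between osteoblasts and pre-osteoblasts (3.93).

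Within the groups, single cultures also differed along this axis. Osteoblast culture 2 was the highest of its group for 18 of the 19 synthesis members, by a median of 0.51 over the mean of the other cultures, and the lowest for 4 of 4 LXR-driven members, by a median difference of -0.38. Over all genes it was highest for 36.1% and lowest for 35.7%. The exception was Insig1, which was lowest there. The same culture was highest for 11 of 11 dividing-cell markers (median 1.11). Idi1, Cyp51 and Fdps showed the widest gaps, as their values above show. Without this culture their differences between osteoblasts and pre-osteoblasts were -4.20 for Idi1, -3.40 for Cyp51 and -1.98 for Fdps, and 4 members were called higher and 19 lower.

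In the tumour lines, line 2 was highest for 13 of 19 synthesis members, all 6 mevalonate enzymes among them, and lowest for 3 of the 4 LXR-driven members, and it was highest for all 11 dividing-cell markers. Line 3 was highest for 4 of 4 LXR-driven members and lowest for 11 of 19 synthesis members. In pre-osteoblasts the order was different. Pre-osteoblast culture 2 was lowest for 15 of 19 synthesis members while highest for 11 of 11 dividing-cell markers. Culture 1 was highest for 15 of 19 synthesis members and lowest for all 11 of those markers. The dividing-cell and synthesis lists thus ordered the cultures alike by their means in osteoblasts and oppositely in pre-osteoblasts. Over all genes, line 2 was highest for 37.4% and lowest for 28.7%, and line 3 was highest for 35.9% and lowest for 31.6%. Pre-osteoblast culture 1 was highest for 43.7% of all genes and lowest for 26.7%, and culture 2 was highest for 30.5% and lowest for 32.8%. Line 2 is the one tumour line from a male, so its sex cannot be told apart from other traits of that line. These orders describe 3 samples a group and were not tested.

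**Figure D5:**
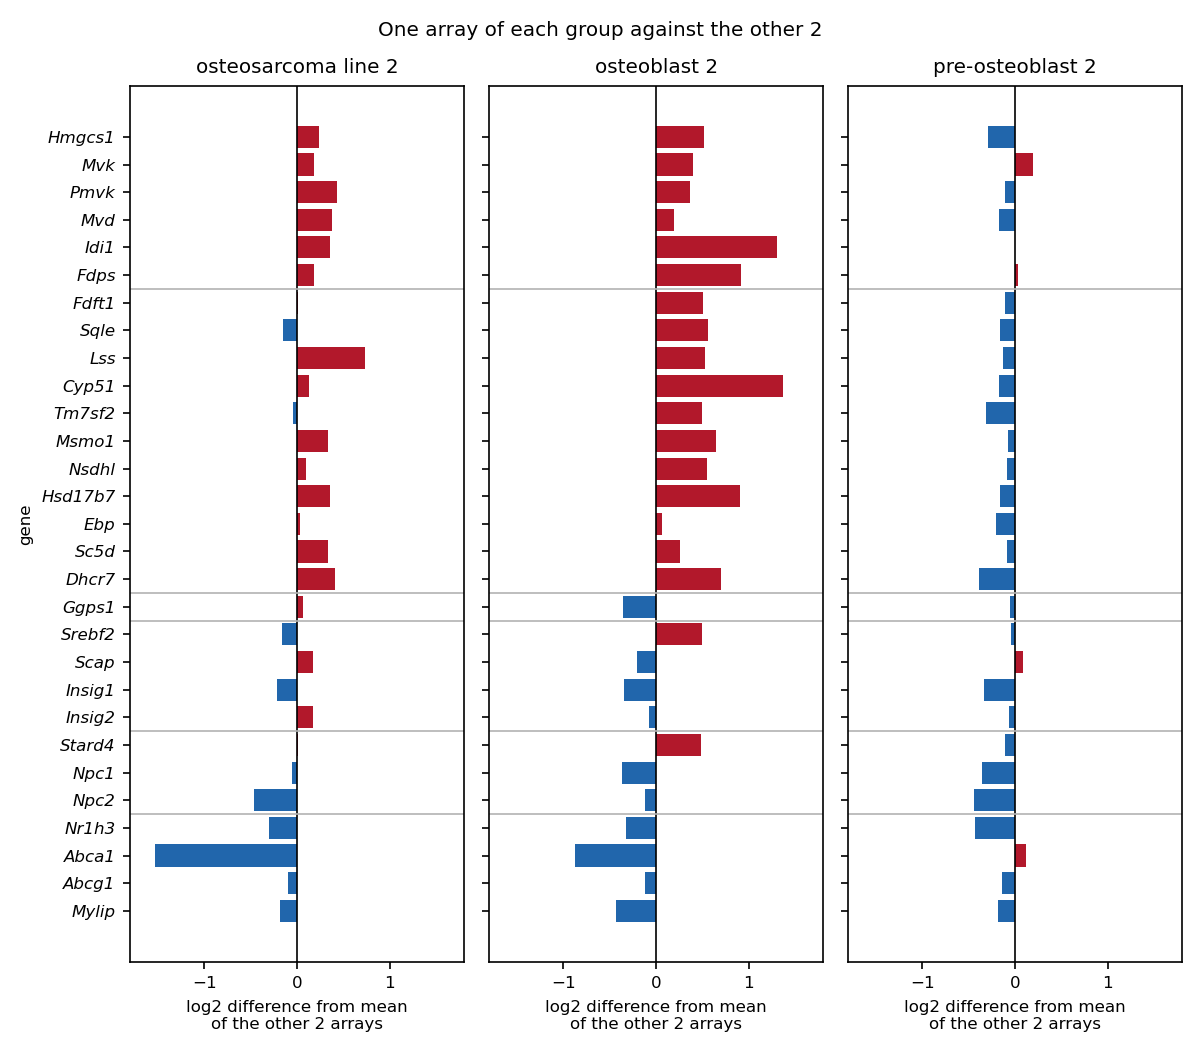
Log2 level of sample 2 minus the mean of the other samples of its group (horizontal axes), for each measured member (rows, ordered by role), in osteosarcoma, osteoblasts and pre-osteoblasts; red bars are above 0 and blue bars below. In osteoblasts 18 of 19 synthesis members lie right of 0 and the 4 LXR-driven members left of it, and in pre-osteoblasts most synthesis members lie left of 0.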

How the data were processed

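The log2 values, 1 for each probe set and array, were deposited by the authors after RMA with the build mm9, per the submitters' notes, and no version, filter or annotation release is stated in the sources used here. RMA normalizes between arrays, so differences are relative to the other genes of an array. Medians of the arrays ranged from 7.43 to 7.56. Precision is limited by having 3 arrays a group.

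Of 35556 probe sets, 21789 had 1 gene symbol in the platform annotation, 1621 several and 12146 none; only the first were used, and 21698 matched the reference gene table, which changed 0 symbols. A gene with several such probe sets was read from the brightest on average over the 9 arrays (19938 genes). Group means of the 3 groups were estimated from all 9 arrays for all genes together, leaving 6 residual degrees of freedom, by lmFit and eBayes of limma 3.58.1 under R 4.3.3, with no filter, two-sided tests and Benjamini-Hochberg adjustment over all genes. The code was tested on simulated data. The osteosarcoma spread is between lines, that of the Kusa4b10 groups between cultures of 1 line. Deviations of same-numbered osteoblast and pre-osteoblast cultures had correlations of 0.15, 0.18 and 0.03. Differently numbered cultures gave -0.16 to 0.077, so 0.15 and 0.18 were the highest of all. The numbers were not taken as pairs in the main fit, and a fit with the replicate number as a block is given below.

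Members, gene lists and alternatives were chosen with earlier results of these data known. The members measured are all named. Of each other pathway list, genes named are among the 4 called ones with the largest differences in a comparison, and of marker lists at most 3 are named; exceptions are stated.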

Additional observations from a re-analysis of the deposited data

How the results depend on the processing

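Alternatives changed the filter on dim genes, the probe set of a gene, the normalization, the arrays in the fit, the weights, the prior, the samples and the replicate block. Of the called members, 21 of 23 kept their call under every alternative in osteoblasts against pre-osteoblasts, 5 of 9 in osteosarcoma against pre-osteoblasts (Fdft1, Sqle, Insig1 and Nr1h3 did not) and 20 of 21 in osteosarcoma against osteoblasts. Leaving out samples in turn, members called higher in osteoblasts than in pre-osteoblasts numbered 2 to 5, members lower in osteosarcoma than in pre-osteoblasts 6 to 14 and members higher there 0 to 1; that last count was also 1 with genes above the median level and with quantile normalization again. With genes above the median level, which removes Abcg1, the median of the LXR-driven members was -0.43 in osteosarcoma against pre-osteoblasts and -1.21 against osteoblasts. With the replicate number as a block, 4 members were higher and 19 lower in osteoblasts and no call changed. Signs turned only in members that did not pass. Leaving out samples in turn, Npc2 in osteoblasts against pre-osteoblasts ranged from -0.144 to 0.173, Npc2 in osteosarcoma from -0.224 to 0.093 against pre-osteoblasts and from -0.204 to 0.0744 against osteoblasts, Sc5d in osteosarcoma against pre-osteoblasts from -0.108 to 0.0637, and in osteosarcoma against osteoblasts Ebp from -0.219 to 0.0714 and Insig2 from -0.127 to 0.0011. Sc5d in osteosarcoma against pre-osteoblasts was -0.0101 with arrays centred. With osteoblast 2 and pre-osteoblast 2 both left out, an alternative added after seeing the data, Sc5d there was -0.0262 and Npc2 in osteoblasts against pre-osteoblasts was -0.104. The causes were not tested.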

Other observations

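Other sterol genes outside the named members also separated the groups. Of 6 further genes of sterol synthesis and uptake, 2 rose and 1 fell in osteosarcoma and 2 rose and 2 fell in osteoblasts, both against pre-osteoblasts. Vldlr, a lipoprotein receptor gene, was at 9.21, 8.02 and 9.95 in the osteosarcoma lines, 9.53, 9.96 and 8.56 in osteoblasts and 6.82, 6.66 and 6.95 in pre-osteoblasts. It was above pre-osteoblasts in every array of both other groups (2.25 ± 0.49 in osteosarcoma, adjusted p = 0.0125; 2.54 ± 0.49 in osteoblasts, adjusted p = 0.00618). Nceh1, which hydrolyses cholesterol esters, was at 9.91, 10.47 and 9.52 in the osteosarcoma lines, 9.77, 9.77 and 10.29 in osteoblasts and 8.29, 8.37 and 8.19 in pre-osteoblasts, with calls of 1.68 ± 0.23 in osteosarcoma and 1.66 ± 0.23 in osteoblasts relative to pre-osteoblasts. Scarb1, the receptor for high-density lipoprotein, ran with the synthesis genes: its differences from pre-osteoblasts were -0.86 ± 0.14 in osteosarcoma and -1.49 ± 0.14 in osteoblasts.

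Of 8 genes of sterol transfer within the cell, 6 fell in osteosarcoma relative to pre-osteoblasts, and 1 rose and 1 fell in osteoblasts. Gramd1b, which carries cholesterol from the plasma membrane to the endoplasmic reticulum, was at 8.81, 8.79 and 8.43 in the osteosarcoma lines, 11.29, 10.64 and 11.39 in osteoblasts and 8.90, 8.77 and 8.56 in pre-osteoblasts, and rose by 2.37 ± 0.20 in osteoblasts (adjusted p = 1.36e-04). Cyp7b1, an oxysterol hydroxylase gene, divided the tumour lines: it was at 8.53, 5.60 and 8.48 in lines 1, 2 and 3, against 5.44, 5.46 and 5.48 in osteoblasts and 5.41, 5.07 and 5.16 in pre-osteoblasts. Line 2 came from a male and the other lines from females, so sex and line cannot be told apart here. Pltp, a phospholipid transfer protein and LXR target, fell by 1.88 ± 0.23 in osteosarcoma relative to pre-osteoblasts.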
